A study of Mus musculus with 20 samples.

Results

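Srebf1, Mlxipl, Mlx, Nr1h3, Nr1h2, Usf1, Insig2 and Pparg encode transcription factors of hepatic fat synthesis and 1 membrane protein, INSIG2, that restrains the processing of SREBP-1. They were chosen by gene symbol, and the probe set with the highest mean log2 value over all arrays stands for each gene. Of the 8 genes, 7 were on the probe table, among 18193 genes in all, with 12 probe sets between them. Nr1h2 was not analysed here. Livers were taken from Scd1-/- mice (KO) on a very-low-fat (VLF) diet, Harlan Teklad TD03045, Scd1+/+ mice (WT) on the VLF diet, KO mice on chow and WT mice on chow. Each group held 5 individual livers, each hybridised to its own Affymetrix Mouse 430 2.0 array, which makes 20 arrays in all. Scd1 encodes the stearoyl-CoA desaturase that turns saturated into monounsaturated fatty acids. The series set out to find expression changes particular to the KO on the VLF diet. The sources used here do not give the age, sex or background strain of the mice, the length of the diet or the feeding state at collection.

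Fat synthesis in liver is set by a small group of DNA-binding proteins. SREBP-1, encoded by Srebf1, is made as a membrane precursor that SCAP carries out of the endoplasmic reticulum for cleavage, and the INSIG proteins hold SCAP back. ChREBP, encoded by Mlxipl, responds to glucose metabolites and binds DNA as a dimer with MLX. LXR alpha, encoded by Nr1h3, responds to oxysterols and activates Srebf1 in mouse liver. USF1 binds E-boxes in lipogenic promoters, and PPAR gamma, encoded by Pparg, drives lipid storage genes and is low in normal mouse liver.

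All genotype labels were matched by Scd1 itself: normalized intensity averaged 31.5 ± 3.97 in KO VLF livers and 18160 ± 1419 in WT VLF livers, and 45.9 ± 11.5 in KO chow livers and 8607 ± 1597 in WT chow livers (mean ± SD, n = 5 each). Array 3 of the KO chow group stood apart from its group, with a mean absolute log2 distance of 0.236 to the other 4 arrays, against 0.165 to 0.170 for each of those. Where leaving it out changed a call on a member's brightest probe set, the value without it is given too. The same was done where it moved a value given here from such a probe set by over 1.5 times. The log2 changes of the members' other probe sets were not fitted again without it. Marker genes of some other liver cells moved with the KO VLF group. In KO against WT livers on the VLF diet, 19.2% of all genes were called higher and 23.0% lower. The summed level of 6 macrophage markers was 9127 to 14330 in KO VLF livers and 4387 to 5225 in WT VLF livers, and all 6 were called higher by limma. That of 6 stellate cell markers was 4399 to 5286 in KO VLF livers and 2377 to 3062 in WT VLF livers, with 3 called higher and 1 lower. That of 5 endothelial markers was 1172 to 1764 in KO VLF livers and 1768 to 2145 in WT VLF livers, with 3 called lower. The sum of 5 hepatocyte markers was 84800 to 88260 in KO VLF livers and 87950 to 90940 in WT VLF livers, with 2 called lower (Apob and Fga). Of 4 cholangiocyte markers 1 was called higher (Sox9) and 3 were not called. Of 4 lymphocyte markers 1 was called lower (Ms4a1) and 3 were not called. The part of these cells in the results below was not tested. In whole tissue, fewer cells of a type and less RNA per cell cannot be told apart.

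The promoter windows of the 3 genes that encode SREBP-1, ChREBP and MLX are shown because Srebf1 and Mlxipl had the largest changes among the measured members between genotypes on the VLF diet, and because MLX is the partner with which ChREBP binds E-boxes. Each runs from 250 bases before to 50 bases after a transcription start (RefSeq, GRCm38.p6) and is written 5′ to 3′ on the gene's strand. Capitals mark the E-box CACGTG, the sterol regulatory element TCACNCCAC or the NF-Y box CCAAT, on either strand. The Srebf1 window, chr11:60210422-60210721 on the minus strand, is the most downstream of its 3 annotated starts.
Srebf1: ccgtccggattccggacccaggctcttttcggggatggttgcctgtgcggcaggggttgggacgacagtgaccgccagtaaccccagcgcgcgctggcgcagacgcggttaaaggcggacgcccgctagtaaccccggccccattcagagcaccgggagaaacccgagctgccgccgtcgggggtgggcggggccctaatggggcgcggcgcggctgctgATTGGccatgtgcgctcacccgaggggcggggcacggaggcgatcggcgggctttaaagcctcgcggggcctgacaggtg
Mlxipl, upstream start: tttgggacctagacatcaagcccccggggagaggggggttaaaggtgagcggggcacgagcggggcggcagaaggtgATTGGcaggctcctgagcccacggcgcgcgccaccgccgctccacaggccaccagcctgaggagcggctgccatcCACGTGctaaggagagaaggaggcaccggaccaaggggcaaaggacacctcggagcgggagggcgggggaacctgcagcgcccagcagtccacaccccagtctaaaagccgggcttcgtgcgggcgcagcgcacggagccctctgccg
Mlxipl, downstream start: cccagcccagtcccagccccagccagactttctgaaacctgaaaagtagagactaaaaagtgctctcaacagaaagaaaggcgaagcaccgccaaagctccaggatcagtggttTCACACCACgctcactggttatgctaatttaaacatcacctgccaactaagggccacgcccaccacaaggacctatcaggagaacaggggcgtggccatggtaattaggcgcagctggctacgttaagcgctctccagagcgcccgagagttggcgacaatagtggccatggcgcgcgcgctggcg
Mlx: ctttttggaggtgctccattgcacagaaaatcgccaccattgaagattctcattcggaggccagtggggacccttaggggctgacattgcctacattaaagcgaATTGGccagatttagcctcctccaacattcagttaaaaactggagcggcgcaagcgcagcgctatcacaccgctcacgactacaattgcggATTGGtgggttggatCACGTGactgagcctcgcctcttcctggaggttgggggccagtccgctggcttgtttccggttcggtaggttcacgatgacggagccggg
The Mlxipl windows are chr5:135089640-135089939 and chr5:135106641-135106940, and the Mlx window is chr11:101087040-101087339, all on the plus strand. The upstream Mlxipl window held the E-box at positions -98 to -93 from the start, and the downstream one held the sterol regulatory element at -136 to -128. The Mlx window held an E-box at -40 to -35. An NF-Y box lay at -30 to -26 from the Srebf1 start.

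Over the 17 annotated windows of all 8 genes, 2 held an E-box, 1 a sterol regulatory element and 7 an NF-Y box. Among all 32851 mouse promoter windows of this length, 7.15% held the E-box, 1.24% the sterol regulatory element and 37.4% the NF-Y box. No member window held the DR4 or DR1 repeat bound by LXR or PPAR dimers in the strict spelling searched, which 0.0822% and 0.222% of all windows held. Looser spellings of these repeats were not searched for. The search therefore cannot say whether a window, that of Srebf1 included, lacks an LXR or PPAR element. All of these counts are matches of letters and not measured binding sites.

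**Figure D1:**
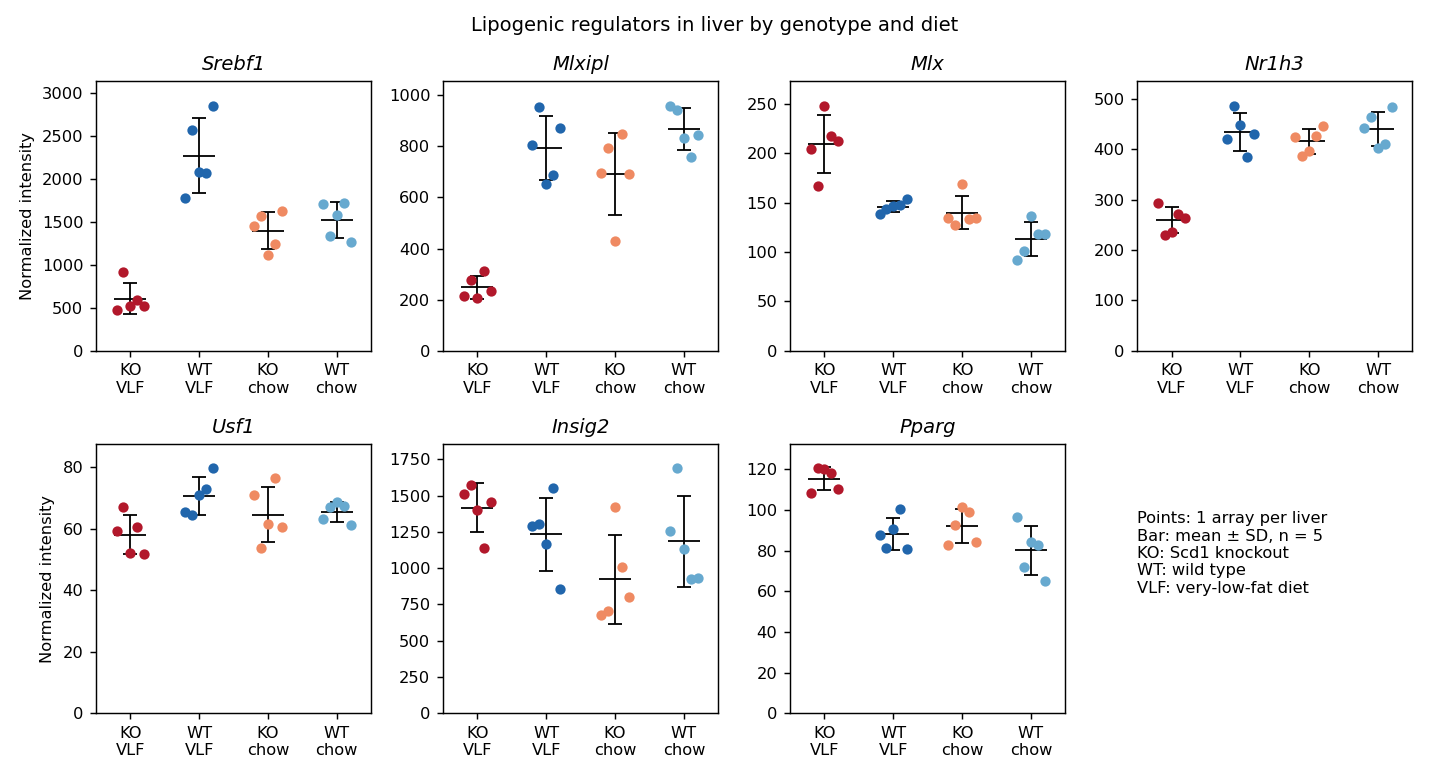
Normalized intensity (linear axis from 0) of the 7 measured members in KO VLF, WT VLF, KO chow and WT chow livers. Points are arrays, and the bar is the mean ± SD of 5. Srebf1, Mlxipl and Nr1h3 are lowest, without overlap, in the 5 KO VLF livers, and Pparg is highest there.

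Srebf1, Mlxipl and Nr1h3 fell in KO livers on the VLF diet, by fitted changes of 3.81-fold, 3.21-fold and 1.68-fold against WT livers on the same diet. Mlx and Pparg rose there, by 1.43-fold and 1.31-fold. Usf1 was lower by 1.22-fold with overlapping groups, and Insig2 did not pass the test on its brightest probe set. The other Insig2 probe sets did pass, at log2 changes of 0.88 and 0.80. Of the 7 members, 2 were called higher and 4 lower at a limma adjusted p under 0.05. The same rule called 42.2% of all genes in this comparison, 19.2% higher and 23.0% lower. The 2 groups did not overlap for 5 of the 7 members, beside 30.1% of all genes. On chow, no member passed the test between genotypes. By limma, 3 of the 7 had an unadjusted p under 0.05 there, and 2.92% of all genes were called, 1.23% higher and 1.70% lower. The KO and WT livers on chow overlapped for all 7 members, and they did not overlap for 6.12% of all genes.

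Srebf1 (chr11:60199084-60224186, GRCm38.p6) is on the table with 1 probe set, so the SREBP-1a and SREBP-1c transcripts were not told apart. Its normalized intensity was 472, 916, 526, 592 and 523 in KO VLF livers and 1773, 2574, 2081, 2072 and 2855 in WT VLF livers. On chow it was 1455, 1567, 1114, 1237 and 1623 in KO livers and 1710, 1334, 1576, 1717 and 1267 in WT livers. The highest KO VLF liver, array 2, thus lay under the lowest liver of each other group, and the chow groups overlapped. Srebf1 changed by -1.93 ± 0.17 on the log2 scale in KO against WT livers on the VLF diet (estimate ± SE, n = 5 each, limma adjusted p = 4.31e-08), and -2.09 without KO VLF array 2. On chow it was -0.12, with a 95% interval of -0.48 to 0.23 and an adjusted p of 0.858 by limma, and -0.05 without KO chow array 3.

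The diet lowered Srebf1 in KO livers, while its estimate in WT livers was positive and missed the threshold. In KO livers VLF feeding lowered it by a log2 change of -1.24 ± 0.17 (n = 5 livers each, limma adjusted p = 1.15e-05). In WT livers the change was 0.57 ± 0.17 with no overlap between the 5 VLF and the 5 chow livers, and a limma adjusted p of 0.125. With arrays scaled to a common median and no quantile step, the WT change was 0.65 and passed (limma adjusted p = 0.0239). It passed in no other of 10 alternative settings. Nor did it pass in any of 10 fits that left out an array (limma adjusted p of 0.108 to 0.243). The genotype difference on the VLF diet minus that on chow was -1.80 ± 0.24 (limma adjusted p = 1.86e-05).

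Mlxipl (chr5:135089890-135139768), the gene for ChREBP, had intensities of 212, 276, 205, 311 and 235 in KO VLF livers and 804, 952, 652, 689 and 872 in WT VLF livers. On chow it had 694, 794, 430, 848 and 690 in KO livers and 960, 941, 834, 758 and 843 in WT livers. All KO VLF livers were again below every other liver, and the KO liver at 430 on chow was array 3, the one that stood apart. The log2 change of KO against WT was -1.68 ± 0.16 on the VLF diet (limma adjusted p = 1.38e-07) and -0.36 ± 0.16 on chow (adjusted p = 0.203). Without array 3 the chow change was -0.20 (limma adjusted p = 0.536). In KO livers the VLF diet lowered Mlxipl by a log2 change of -1.46 ± 0.16 (limma adjusted p = 8.8e-07). In WT livers the diet change was -0.14, with a 95% interval of -0.47 to 0.20. The interaction was -1.32 ± 0.23 (limma adjusted p = 0.000282).

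Mlx (chr11:101086707-101092207), the DNA-binding partner of ChREBP, ran the other way. Its brightest probe set, 1418437_a_at, read 204, 167, 249, 218 and 213 in KO VLF livers and 138, 144, 146, 148 and 154 in WT VLF livers. In chow livers it read 135, 128, 169, 133 and 134 in KO and 91.5, 102, 136, 118 and 118 in WT. All KO VLF livers were above all WT VLF livers, but the lowest KO VLF liver lay under the highest KO chow liver. The log2 change was 0.51 ± 0.11 for KO against WT on the VLF diet (limma adjusted p = 0.000871) and 0.58 ± 0.11 for the VLF diet against chow in KO livers (adjusted p = 0.000289). It was 0.31 for the genotype on chow and 0.38 for the diet in WT livers, with limma adjusted p of 0.0998 and 0.103. The interaction was 0.20 (limma adjusted p = 0.499). With arrays centred on the hybridization controls, the changes in KO VLF livers were 0.91 against WT and 1.01 against chow, and the interaction passed at 0.62 (limma adjusted p = 0.0427).

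The second Mlx probe set, 1425930_a_at, gave other calls. It was 133 to 161 in KO VLF livers and 118 to 150 in WT VLF livers, which overlapped, with a log2 change of 0.17 (limma adjusted p = 0.146). On chow it was 112 to 167 in KO livers and 89.7 to 96.8 in WT livers, with no overlap and a log2 change of 0.54 ± 0.09 (limma adjusted p = 0.0117). The VLF diet raised it in WT livers by 0.50 (limma adjusted p = 0.00702) and gave 0.13 in KO livers (adjusted p = 0.332). Its interaction was -0.37 ± 0.12 and was called lower (limma adjusted p = 0.0442), opposite in sign to that of the brightest probe set. The highest KO chow value, 167, was that of array 3, which stood apart, against 128, 112, 141 and 134 in the others. How far the calls on this probe set rest on that array was not tested. Both probe sets were lowest on average in WT chow livers, and they differed in which comparison passed the test. Within a liver, the log2 signal of the brightest minus that of the second was 0.34 higher in KO VLF livers than in WT VLF livers (2-sided exact permutation test, p = 0.0159, 0.0318 adjusted over 8 tests that include those of Insig2). It was 0.45 higher in KO VLF than in KO chow livers (exact permutation p = 0.00794, adjusted 0.0212). It differed by -0.23 between genotypes on chow and by -0.12 for the diet in WT livers (exact permutation p = 0.0873 and 0.397).

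**Figure D2:**
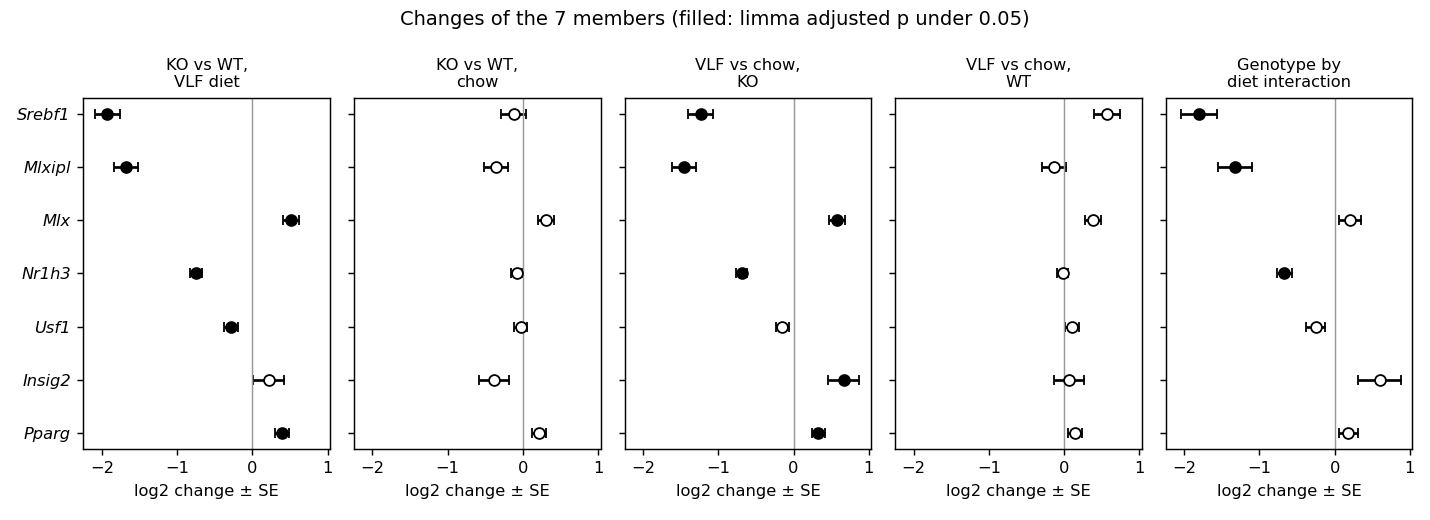
Log2 change ± SE of the 7 members, each from its brightest probe set, in the 5 comparisons. Filled points passed a limma adjusted p under 0.05, and open points did not. Srebf1, Mlxipl and Nr1h3 lie left of 0 in KO against WT on the VLF diet, in the diet comparison of KO livers and in the interaction.

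Usf1 (chr1:171411307-171418954) was dim, with its brightest probe set at 51.9 to 66.9 in KO VLF livers and 64.4 to 79.6 in WT VLF livers. The groups overlapped. The log2 change was -0.28 ± 0.09 (limma adjusted p = 0.0196), and the call was lost on leaving out KO VLF array 3 or 5 or WT VLF array 5, with changes of -0.25, -0.24 and -0.24. It was also lost with median scaling alone (-0.23) and with centring on the hybridization controls (-0.03). The other 2 Usf1 probe sets did not pass in this comparison, at -0.13 and -0.20. One of them, 1448805_at, was lower on the VLF diet than on chow in KO livers, by a log2 change of -0.21 ± 0.07 (limma adjusted p = 0.0185).

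Nr1h3 (chr2:91184061-91202829), the gene for LXR alpha, showed little spread within groups. Its intensity was 292, 229, 236, 272 and 263 in KO VLF livers and 421, 487, 449, 384 and 429 in WT VLF livers. On chow it was 423, 386, 397, 426 and 446 in KO livers and 442, 464, 402, 410 and 483 in WT livers. KO VLF livers were separate from all others, and the other 3 groups overlapped. The log2 change of KO against WT on the VLF diet was -0.75 ± 0.07 (limma adjusted p = 2.21e-07), and on chow it was -0.08, with a 95% interval of -0.24 to 0.07. The VLF diet lowered Nr1h3 in KO livers by a log2 change of -0.69 ± 0.07 (limma adjusted p = 6.84e-07) and gave -0.02 in WT livers. The interaction was -0.67 ± 0.10 (limma adjusted p = 0.000118). With arrays centred on the hybridization controls, the genotype change on the VLF diet was -0.35 and still passed (limma adjusted p = 0.0471). The KO diet change of -0.27 and the interaction of -0.32 then did not pass (limma adjusted p = 0.11 and 0.211).

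Pparg (chr6:115360879-115490404) was dim in every group and highest in KO VLF livers, at 108, 120, 120, 118 and 110, against 87.6, 81.3, 90.6, 100 and 80.8 in WT VLF livers. On chow it was 82.8, 92.5, 101, 98.9 and 84.4 in KO livers and 96.5, 72.1, 84.0, 82.8 and 64.9 in WT livers. Every KO VLF liver was above every liver of the other 3 groups. The log2 change was 0.39 ± 0.09 against WT on the VLF diet (limma adjusted p = 0.00229) and 0.33 ± 0.09 against chow in KO livers (adjusted p = 0.00969). With arrays centred on the hybridization controls these were 0.72 and 0.74, both passing the limma test. On chow the genotype change was 0.21 (limma adjusted p = 0.188), and the interaction was 0.18 (adjusted p = 0.462). The adipocyte marker Adipoq was at the floor on all 20 arrays, none of the 3 adipocyte markers on the table was called higher and 1 (Retn) was called lower, and they summed to 101.7 to 130.5 in KO VLF livers and 111.5 to 144.9 in WT VLF livers. Macrophages also express Pparg, and their summed marker level is given above.

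Insig2 (chr1:121304353-121332662), whose protein holds SCAP in the endoplasmic reticulum, has 3 probe sets, and the brightest departed from the others. Over the 20 arrays, 1417980_a_at and 1417981_at correlated by 0.982 (Pearson). Their correlations with 1417982_at were 0.796 and 0.851. By mean log2 value, 1417982_at was brightest by a narrow margin, at 10.167 against 10.162 for 1417981_at. The brightest, 1417982_at, read 1513, 1570, 1400, 1136 and 1457 in KO VLF livers and 1289, 1305, 1166, 1550 and 857 in WT VLF livers. On chow it read 678, 707, 1420, 1005 and 803 in KO livers and 1259, 1688, 1133, 923 and 930 in WT livers. The genotypes overlapped on both diets, and the high KO chow liver was array 3. The log2 change of KO against WT was 0.22 on the VLF diet and -0.38 on chow (limma adjusted p = 0.519 and 0.294). The VLF diet raised it in KO livers by 0.66 ± 0.20 (limma adjusted p = 0.0187). That call was lost without KO chow array 1 or 2 (0.57 and 0.58), and the change was 0.84 without KO chow array 3. It was also lost with median scaling alone (0.64, limma adjusted p = 0.0576), while centring on the hybridization controls gave 1.00. Without KO chow array 3 the Insig2 interaction passed, at 0.77 (limma adjusted p = 0.0398), against 0.60 with it (adjusted p = 0.194).

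Probe set 1417980_a_at separated the groups more. It read 1919, 1595, 1569, 1388 and 1629 in KO VLF livers and 971, 871, 840, 1212 and 599 in WT VLF livers. On chow it read 482, 375, 1079, 524 and 636 in KO livers and 517, 949, 614, 538 and 659 in WT livers. All KO VLF livers were above all other livers. The log2 change was 0.88 ± 0.23 against WT on the VLF diet (limma adjusted p = 0.00672), 1.48 ± 0.23 against chow in KO livers (adjusted p = 6.82e-05) and 1.02 ± 0.33 for the interaction (adjusted p = 0.0382). Probe set 1417981_at gave 0.80 and 1.40 in the first pair of comparisons, both passing, and an interaction of 0.95 (limma adjusted p = 0.0673).

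Within a liver, the log2 signal of 1417980_a_at minus that of 1417982_at averaged 0.20 ± 0.13 in KO VLF livers and -0.47 ± 0.09 in WT VLF livers (SD, n = 5 each). It averaged -0.62 ± 0.29 in KO chow livers and -0.85 ± 0.28 in WT chow livers. The difference of KO against WT was 0.66 on the VLF diet (2-sided exact permutation test, p = 0.00794, 0.0212 adjusted over 8 such tests), the smallest p that 5 against 5 allows. On chow it was 0.24 (exact permutation p = 0.262). For the VLF diet against chow it was 0.81 in KO livers (exact permutation p = 0.00794) and 0.39 in WT livers (p = 0.0238). The Insig2 probe sets thus did not change equally with diet or, on the VLF diet, with genotype. The sources used here do not say which transcripts each probe set reads.

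**Figure D3:**
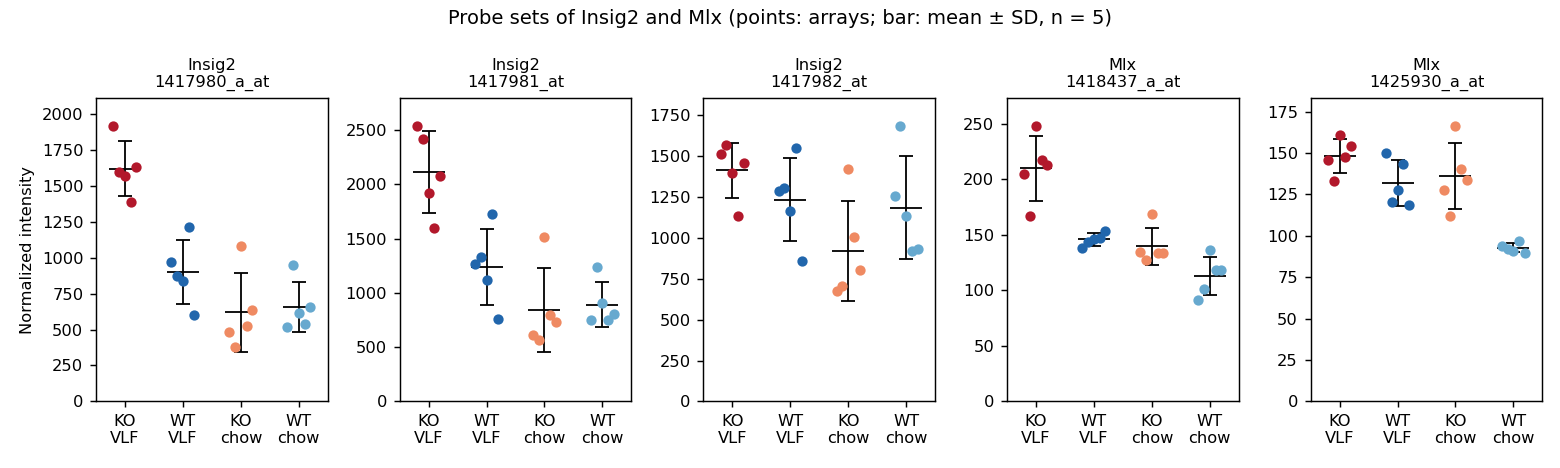
Normalized intensity (linear axis from 0) of the 3 Insig2 and the 2 Mlx probe sets in the 4 groups, with points for arrays and a bar for the mean ± SD of 5. KO VLF livers do not overlap WT VLF livers for Insig2 1417980_a_at and Mlx 1418437_a_at, and they do for the other 3 probe sets.

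The VLF diet against chow in KO livers called 3 members higher (Mlx, Insig2 and Pparg) and 3 lower (Srebf1, Mlxipl and Nr1h3) by limma. All genes gave 34.8% called, 17.0% higher and 17.7% lower. The groups were apart for 4 of the 7 members, beside 25.2% of all genes. In WT livers the diet called none of the 7 (limma; 2 at an unadjusted p under 0.05), beside 1.58% of all genes. Srebf1 and Mlx were the 2 members whose WT VLF and WT chow livers did not overlap, beside 4.26% of all genes. The interaction called Srebf1, Mlxipl and Nr1h3, all lower, and none higher, beside 24.2% of all genes. These comparisons share arrays: the KO VLF livers enter the genotype comparison, the KO diet comparison and the interaction.

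Transcripts for SREBP processing were called in both directions in KO livers on the VLF diet. Of 5 genes, 1 was called higher and 4 lower, with a median log2 change of -0.36, beside -0.06 over all measured genes. In this comparison 19.2% of all genes were called higher and 23.0% lower, which is the background for the counts of each list below. Scap, the escort of SREBP, changed by -0.82 ± 0.09, and Insig1, the other retention protein, by -0.74 ± 0.12. Srebf2, the gene for the cholesterol-regulating SREBP-2, changed by -0.36 ± 0.11, and Mbtps1, the site-1 protease, by -0.14 ± 0.05. Mbtps2, the site-2 protease, rose by 0.95 ± 0.15. The count of lower genes was 2 in place of 4 with either other scaling of the arrays, and Mbtps1 changed sign under both. On chow none of the 5 passed the limma test between genotypes, beside 2.92% of all genes called, and 2 had an unadjusted p under 0.05.

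Max and the partners of MLX and USF formed the next list. Mlxip, the gene for the ChREBP paralogue MondoA, rose by a log2 change of 0.81 ± 0.11 in KO against WT VLF livers. It was 1 of 2 list genes called between genotypes on chow (0.49 ± 0.11, limma adjusted p = 0.0344), the other being the coactivator gene Ncoa2 (0.31 ± 0.08, adjusted p = 0.0416). Neither was called there without KO chow array 3 or with hybridization-control centring. On the VLF diet Mnt, a MAX-binding repressor, rose by 0.55 ± 0.11, Usf2 fell with a change of -0.59 ± 0.09, and Max gave -0.01. Usf2 was not called with hybridization-control centring.

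Of 10 LXR and PPAR gamma partners, 2 were higher and 5 lower in KO VLF livers against WT VLF livers, beside 42.2% of all genes called either way, with a median of -0.06, the same as over all measured genes. Rxra, the shared heterodimer partner of LXR and PPAR gamma, changed by -0.78 ± 0.09, and Rxrb by -0.26 ± 0.08, which turned to 0.14 with hybridization-control centring. The coactivator gene Ppargc1a rose by 1.59 ± 0.27, while Ppargc1b, a coactivator of SREBP-1 and LXR, fell with a change of -1.21 ± 0.20. The corepressor gene Nrip1 rose by 1.07 ± 0.09. Ncoa2 (-0.21 ± 0.08) and Cebpa, a hepatocyte and adipocyte transcription factor (-2.03 ± 0.13), were the other genes that fell.

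Insulin signalling acts upstream of Srebf1, and of its 7 measured genes 2 were higher and 3 lower, beside 19.2% and 23.0% of all genes, with a median of -0.32. Insr, the insulin receptor, changed by -1.03 ± 0.05, Irs1 by -0.55 ± 0.17 and Akt2, a kinase downstream of it, by -0.53 ± 0.05. Irs2, the other main hepatic receptor substrate, rose by 0.82 ± 0.15, and Gsk3b, a kinase inhibited by AKT, by 0.70 ± 0.11. With hybridization-control centring, 1 of the 7 was called lower.

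The SREBP-1 target list moved one way. All 14 genes were lower in KO VLF livers than in WT VLF livers (limma), with a median log2 change of -2.09, and this count was 14 under both other scalings. Fasn, fatty acid synthase, changed by -3.23 ± 0.26, and Acaca, an acetyl-CoA carboxylase, by -2.16 ± 0.24. Acly, ATP citrate lyase, changed by -1.34 ± 0.28, and Elovl6, a fatty acid elongase, by -3.84 ± 0.29. In WT livers 8 of the 14 rose on the VLF diet, beside 0.797% of all genes, and 6 did not pass, with a median of 1.10. In KO livers 7 of the 14 fell on that diet, beside 17.7% of all genes, and 7 did not pass, with a median of -0.69. The interaction called 13 of the 14 lower, and 14 without KO chow array 3, beside 12.1% of all genes lower. On chow none of the 14 was called between genotypes by limma, with 1 at an unadjusted p under 0.05, beside 2.92% of all genes called.

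The ChREBP target list split: 2 genes were higher, 3 lower and 4 not called in KO VLF livers against WT VLF livers, with a median of 0.12. Each gene was placed in only 1 list, so the lists do not tell apart the output of factors that share targets. Pklr, liver pyruvate kinase, changed by -1.36 ± 0.21, the fructose kinase gene Khk by -0.59 ± 0.11 and the glucose transporter gene Slc2a2 by -0.53 ± 0.16. Arrdc4, an arrestin-like glucose-responsive gene, rose by 1.40 ± 0.14, and the hepatokine gene Fgf21 by 0.62 ± 0.21. Txnip gave 0.67 ± 0.37 and G6pc, glucose-6-phosphatase, 0.52 ± 0.26, and neither passed. With hybridization-control centring the counts were 4 higher and 1 lower.

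LXR targets also divided, with 4 higher and 4 lower of 10 and a median of -0.07. The cholesterol exporters Abca1 and Abcg1 rose by 0.46 ± 0.08 and 0.45 ± 0.09, and so did Mylip, a ligase for the LDL receptor (0.30 ± 0.10). Lpl, lipoprotein lipase, rose by 3.85 ± 0.20. Abcg8, a subunit of the biliary sterol exporter, changed by -0.94 ± 0.13, while its partner Abcg5 gave -0.10 ± 0.13 and did not pass. Lpcat3, Pltp and Cyp7a1 were the other 3 that fell, by changes of -0.44 ± 0.09, -1.26 ± 0.21 and -2.29 ± 0.48. Abca1, Abcg1 and Lpl are also expressed by macrophages, whose 6 markers were higher in the same livers.

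Of 7 SREBP-2 targets, 2 were lower and 5 not called. Idi1, an isomerase of cholesterol synthesis, changed by -1.93 ± 0.33, and Stard4, a sterol carrier, by -1.93 ± 0.16. Sqle (-0.15 ± 0.37), Hmgcs1 (-0.57 ± 0.27) and Fdps (-0.64 ± 0.35) did not pass. Lss (0.10 ± 0.22) and Cyp51 (0.03 ± 0.29) did not pass either, and the list median was -0.57.

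PPAR gamma targets had 5 genes higher, 1 lower and 2 not called of 8, beside 19.2% of all genes higher and 23.0% lower, with a median of 0.93. The lipid droplet genes Cidea and Cidec rose by 2.66 ± 0.21 and 1.85 ± 0.17, and Plin4 rose by 1.08 ± 0.27. Fabp4, a fatty acid carrier of adipocytes and macrophages, rose by 2.06 ± 0.23, and the fatty acid translocase gene Cd36 by 0.78 ± 0.28. Mogat1, a monoacylglycerol acyltransferase, changed by -0.47 ± 0.14. In WT livers none of the 8 was called for the diet by limma, with 2 at an unadjusted p under 0.05, beside 1.58% of all genes called.

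**Figure D4:**
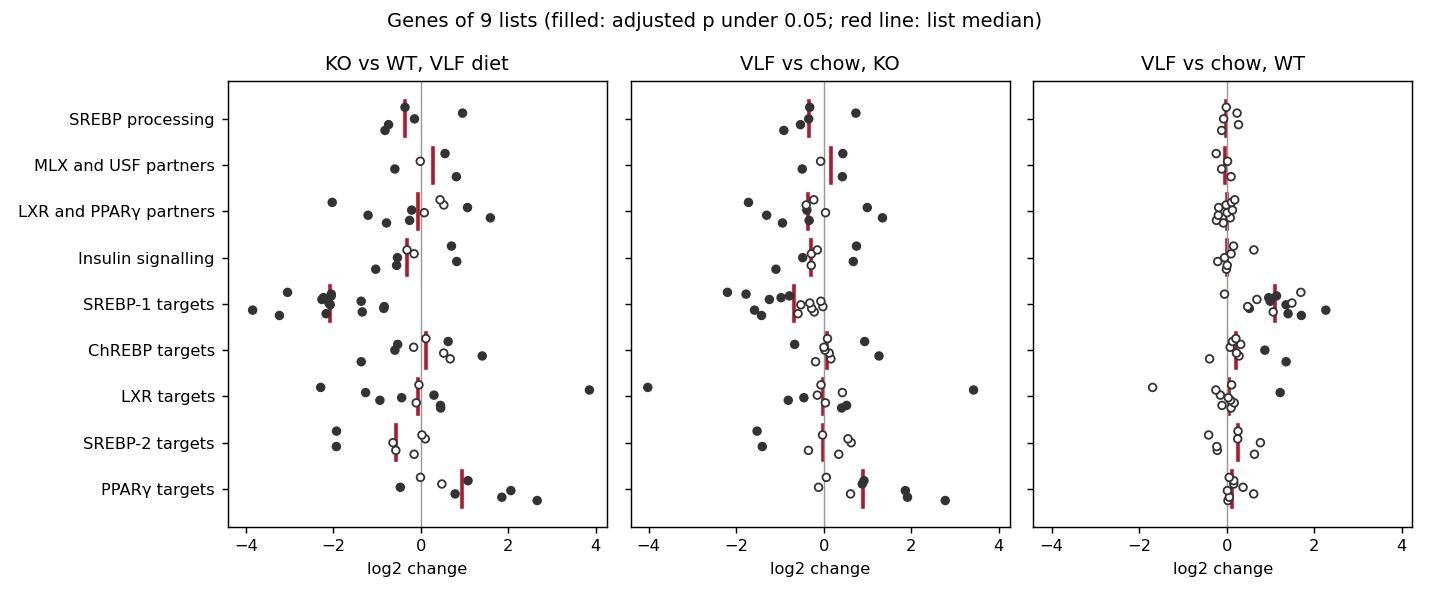
Log2 change (horizontal axis) of each measured gene in 9 lists, for KO against WT on the VLF diet, the VLF diet against chow in KO livers and the same in WT livers. Filled points passed a limma adjusted p under 0.05, and a red line marks the list median. All 14 SREBP-1 targets lie left of 0 in the first panel and most lie right of 0 in the last.

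By likeness of log2 values over the 20 arrays, among 14389 genes above the floor on all arrays, Srebf1 was nearest to Vwce, Nadk and Fmo1 (Pearson r = 0.955, 0.952 and 0.943). Mlxipl was nearest to Ptprf, Cyp2c68 and Gm4951 (0.980, 0.979 and 0.978), and Nr1h3 to Nprl2, Fahd1 and Rdh16f2 (0.969, 0.965 and 0.964). The genes nearest to Mlx were Slc2a1, Klf3 and Hif1a (0.947, 0.942 and 0.932), and those nearest to Pparg were Sh3gl1, Glrx5 and Alg2 (0.915, 0.884 and 0.883). For Usf1 they were Wdr25, Nisch and Bhmt2 (0.827, 0.799 and 0.762). For Insig2 they were Mad2l2, Plin2 and Cdc34 (0.830, 0.808 and 0.772). These values describe arrays that fall into 4 groups, so a shared group pattern can enter them, to a degree that differed by member. With group means removed they were 0.531, 0.664 and 0.776 for the Srebf1 genes and 0.791, 0.759 and 0.794 for the Mlxipl genes. For the Usf1 genes they were then 0.813, 0.662 and 0.691, and for the Insig2 genes 0.839, 0.721 and 0.730.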

How the data were processed

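The authors deposited intensity values on a linear scale (judged from the values) for 45101 probe sets. The submitters' processing notes name MAS5 and RMA without saying which made these values. Per the labels' protocols, total RNA of frozen liver was labelled with biotin. Without the 64 control probe sets, arrays were brought to one median, values under 16 were set to 16, and log2 values were quantile-normalized. The 45037 probe sets were fitted with limma 3.58.1 (R 4.3.3) over all 20 arrays, with 1 mean per group, 16 residual degrees of freedom and Benjamini-Hochberg adjustment; 9117 at the floor throughout counted as unchanged. A call is an adjusted p under 0.05, and ± beside a log2 change is the standard error. The number of arrays limits precision. Probe sets with several genes (932) or none (9160) were given no name. Named genes were all members, the first 4 measured genes of each list and the 3 genes most like each member. Genes behind some, but not all, counts of at most 5 were named too. Members and lists were chosen with earlier results of these data known, and differences between probe sets were tested (scipy 1.17.1) after their values were seen. Methods were tested on simulated data. The labels do not say that replicate numbers pair livers, so the reported fit used no replicate block. Deviations of same-numbered arrays correlated by -0.25 to 0.27, over 0.1 in 6 of 30 pairs. For arrays of other numbers this was 31 of 120 pairs. Alternatives covered scaling, floor, probe set choice, filter, variance model, replicate block and each array left out. Figures used Python 3.11.15 and matplotlib 3.10.9.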

Additional observations from a re-analysis of the deposited data

Results flagged for a closer look

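Mlx in KO chow array 3 was 169.3, far from the other 4 livers of that group at 128 to 135 on the same probe set. This was 1 of 28 member and group sets checked, and chance flags about 1 in 20. The array is the one that stood apart from its group over all probe sets.

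The genotype difference on the VLF diet minus that on chow departed from 0 by limma for Srebf1 (-1.80), Mlxipl (-1.32) and Nr1h3 (-0.67). All 3 were lower in every KO VLF liver than in every WT VLF liver, while the KO and WT livers on chow overlapped.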

How the results depend on the processing

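The number of members called, 6 for KO against WT on the VLF diet, 6 for the VLF diet in KO livers and 3 for the interaction, was 5 to 6, 5 to 6 and 3 to 4 on leaving out single arrays, and 0 in each such fit for the genotype on chow and the diet in WT livers. Under the other alternatives, KO against WT on the VLF diet called 5 to 7 members. With the mean of all probe sets of a gene, Insig2 was also called in that comparison (0.63, limma adjusted p = 0.0218). Its interaction then passed too (0.86, limma adjusted p = 0.0424). For the genotype on chow, 1 member (Mlx, 0.43) was called with that mean. For the diet in WT livers, 1 was called with that mean (Mlx, 0.44), 1 with median scaling and no quantile step (Srebf1, 0.65) and 1 with the replicate block (Mlx, 0.38, limma adjusted p = 0.0286); the block moved no other count of members by more than 1.5 times. Among list genes, Mbtps1 turned sign for KO against WT on the VLF diet with hybridization-control centring (0.25), the mean of probe sets (0.0018) and median scaling (0.0597), and with the centring also for the diet in KO livers (0.0754) and the interaction (0.0604). Rxrb turned with it for KO against WT on the VLF diet (0.14) and the diet in KO livers (0.0849). The cause was not tested. Hybridization-control centring moved the median of all measured genes for KO against WT on the VLF diet to 0.14, against -0.06, to 0.30 for the diet in KO livers and to 0.33 for the interaction, where Mlx then passed (0.62). Of the members' single log2 changes under all alternatives, 745 kept their side of the threshold, 10 lost a call, 8 gained one, and 0 turned sign while called; over members and list genes, 146 values that were not called changed sign. Of the list counts, 1854 stayed within 1.5 times and 108 did not; median scaling called 3 ChREBP targets, 2 LXR targets and 2 insulin genes higher between genotypes on chow, where the reported fit called 0 of each. Usf1 and Pparg had low signal, where background limits the size of a fold.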
